A study of Mus musculus with 18 samples.

Results

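The livers described here are the 6 that compare loss of Nrf1 with its own control, 3 samples labelled Nrf1 CKO and 3 labelled Nrf1 Control, of 18 livers in all. They were chosen by their labels alone. All came from female mice of mixed strain aged 6 weeks. The CKO genotype was Nrf1dN/-::Alb-Cre, so these mice carried the dN allele over a null allele together with Cre recombinase under the albumin promoter, a promoter used above all by hepatocytes. Because albumin is also made by the precursors of hepatocytes, such Cre lines can recombine bile duct cells too. The control genotype was Nrf1dN/+, so both groups carried 1 dN allele, and the controls kept a wild-type allele and are written without Cre. The groups therefore differed in the null allele, which lies in every cell of the animal, as well as in Cre, and the effects of these cannot be told apart. The other 12 livers, used below for the spread between samples and for comparison, were Nrf2-/- (Nrf2 KO) and Nrf2+/+ in C57BL/6, and Keap1KD/- (Keap1 KD) and Keap1KD/+ in mixed strain, of the same sex and age. Each sample was hybridized to 1 single-colour Agilent mouse array. Nothing in the labels tells 3 animals of a group from repeats of 1, so every p-value rests on a spread that could be technical.

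NRF1, encoded by Nfe2l1, is a transcription factor of the cap'n'collar family. It is made as a protein of the endoplasmic reticulum, from which it is pulled out by the ATPase p97, stripped of its sugars, cut and, when proteasomes are short, sent to the nucleus. There it binds antioxidant response elements together with a small MAF protein and is known above all for driving the genes of the proteasome, which breaks down proteins marked with ubiquitin. Its relative NRF2, held in check by KEAP1, binds the same elements and is known for the genes of detoxification.

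Levels are log2 signals set against the 75th percentile of their array, so that a difference of 1 is a doubling. Of the 43379 non-control spots, 52.3% to 54.7% were well above background on the control arrays and 57.5% to 60.1% on the CKO arrays. Values of samples within a group correlated at 0.980 to 0.991 across genes. A gene was called when limma's adjusted p was below 0.05 in a fit over all 18 arrays. Precision is limited by the 3 arrays of each group. Hepatocyte genes marked the tissue in every sample: the albumin gene Alb, the transcription factor Hnf4a and the transport protein gene Ttr were above background on all 6 arrays.

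Nfe2l1 itself lay at 3.93, 3.65 and 3.59 in controls 1 to 3 and at −6.33, −6.67 and −6.33 in CKO 1 to 3. Its probe was well above background on all 3 control arrays and on no CKO array, so that the signal was at least 469-fold lower in CKO (limma adjusted p = 5.88e-15). Such a bound sets the mean of the bright group against the lowest signal well above background on the dim arrays. The sources used here do not place the probe inside or outside the removed part of the gene. The fall is thus that of the sequence at this probe, and whether the rest of the transcript fell was not tested. The gene with the symbol Nrf1 is another one, nuclear respiratory factor 1, and was at −0.19 (adjusted p = 0.541). The gene for NRF2, Nfe2l2, was at 0.68 (adjusted p = 0.331), which did not pass the test.

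A large share of the genes measured differed between CKO and control. Of 17721 genes tested, 3347 were called (18.9%), 1415 of them higher (7.98%) and 1932 lower (10.9%) in CKO. These shares are the background for the counts of each list below. Leaving out CKO 3 left 939 calls, CKO 2 1181 and control 1 1216, while the other 3 arrays left 2243 to 4160. Changes of at least 2-fold were found for 933 genes that rose (5.26%) and 591 that fell (3.34%), and changes of at least 4-fold for 258 and 71. The balance of higher and lower calls depended on the scaling: it was 1539 and 1253 after quantile normalization and 948 and 1740 with each array scaled to its median. The median change of all genes was −0.09, against −0.20 when arrays were scaled to their median and −0.02 after quantile normalization. The fall was largest among bright genes, with a median of −0.39 in the brightest of 10 equal groups (36 higher, 500 lower) against 0.15 in the dimmest (158 higher, 72 lower). After quantile normalization the median of the brightest group was −0.00075, so most lists below are given with their median after that normalization too. The number of members called moved by over 1.5 times under it for 22 of the 52 lists, and its calls are given for many of these. Where a list has no such values, nothing is stated about that normalization. After it 154 of the 188 genes picked for naming kept their call and 34 did not. In bulk tissue, fewer cells of a type and less RNA per cell cannot be told apart, which holds for every cell type named below.

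**Figure D1:**
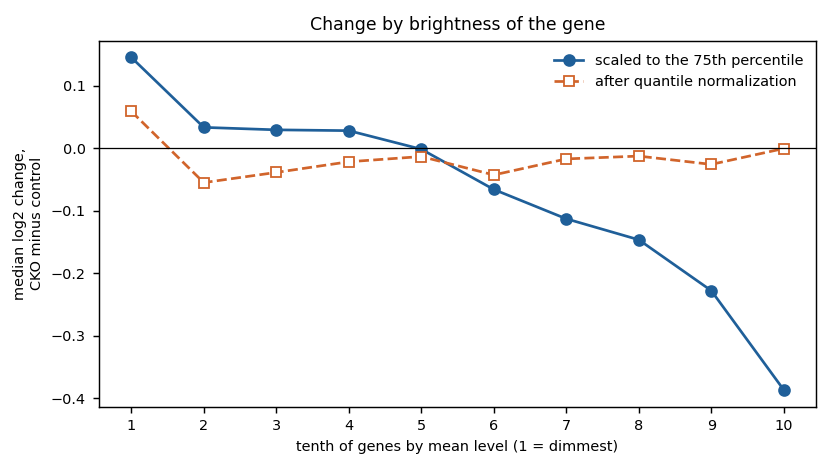
Median log2 change (CKO minus control, vertical axis) of the genes in 10 equal groups of mean level (horizontal axis, 1 is the dimmest), with arrays scaled to the 75th percentile (filled circles) or after quantile normalization (open squares). With the percentile scaling the median goes from 0.15 in the dimmest group to −0.39 in the brightest, and after quantile normalization it stays near 0.

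The arrays of the 2 groups were not spread evenly over slides. Controls 1 and 2 shared 1 slide, and control 3 and all 3 CKO arrays shared another. With slide as a block only control 3 is therefore compared with the CKO arrays. All of these arrays are in the main comparison too, which by itself favours the same direction with slide as a block. Then 65 genes were called (0.367%), 41 higher and 24 lower, 51 of them among the 3347, and 3329 of the 3347 kept their direction. Among the 188 genes picked for naming by rule, 13 kept their call: Nfe2l1, Trem2, Atf3, Uhrf1, Esm1, Gpnmb, Mmp12, Hebp2, Scn8a, Tmem35a, Capg, Slc13a3 and Lyve1. Every other call among those 188 was lost under it, as were those of the other called genes given below, and this is not repeated for each gene.

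CKO 1 lay closer to the controls than CKO 2 and CKO 3 for many groups of genes. Over the members of each list, the median distance from the control mean was 0.36 in CKO 1 against 0.91 and 0.93 in CKO 2 and CKO 3 for actin and filament genes, and 0.46 against 1.11 and 1.07 for collagens. For genes of mitosis the 3 values were 1.73, 1.87 and 1.70, and for genes of DNA replication 1.40, 0.89 and 1.12, so that CKO 1 did not stand nearer to the controls there. Over all genes tested the medians were −0.07, −0.11 and −0.12.

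**Figure D2:**
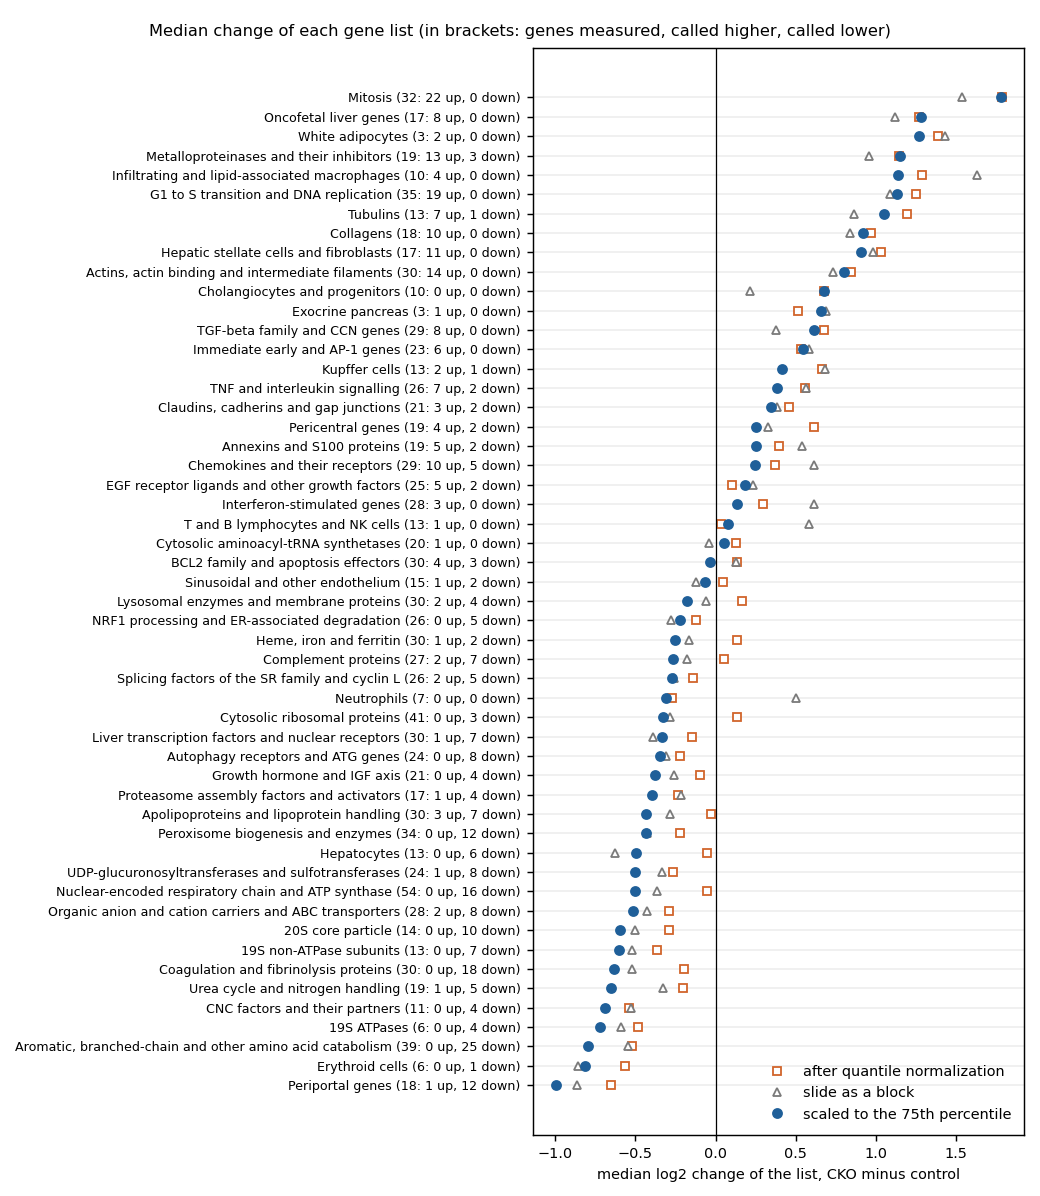
Median log2 change (CKO minus control, horizontal axis) of each gene list (vertical axis, with the number of genes measured, called higher and called lower), with arrays scaled to the 75th percentile (filled circles), after quantile normalization (open squares) and with slide as a block (triangles). Mitosis has the highest median at 1.78 and periportal genes the lowest at −1.0, while the median of the respiratory chain goes from −0.51 to −0.05 after quantile normalization.

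Among genes above background on all 6 arrays, the largest rises were those of Ly6d, a surface protein of epithelial progenitors, Akr1c18, a hydroxysteroid dehydrogenase that breaks down progesterone, and Trem2, a lipid receptor of macrophages. Ly6d lay at 0.14, 0.73 and 1.06 in controls and at 3.23, 6.74 and 7.61 in CKO (log2 change 5.22, SE 0.97, limma adjusted p = 0.00365). Akr1c18 lay at −3.14, −3.70 and −2.90 in controls and at −0.11, 1.21 and 2.46 in CKO (4.43, SE 0.55, adjusted p = 0.00035). Trem2 lay at −1.40, −1.02 and −1.12 in controls and at 2.18, 3.12 and 3.61 in CKO (4.15, SE 0.33, adjusted p = 8.76e-06). CKO 1 was the lowest of the CKO samples for each of these, and the groups did not overlap, which was a condition for naming and held for 43.4% of all genes tested.

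The mitotic spindle gene Psrc1 (3.94), the trypsin inhibitor Spink1 (3.77), the growth inhibitor Ddit4l (3.70), the sphingomyelinase Smpd3 (3.51), the fatty acid hydroxylase Cyp4a12a (3.50, whose probe may also bind near-identical copies), the stress transcription factor Atf3 (3.43) and Uhrf1, a factor that maintains DNA methylation (3.29), followed. Atf3 was the most even of these, at −1.71, −0.98 and −1.44 in controls and at 2.06, 2.32 and 1.76 in CKO (SE 0.32, adjusted p = 4.22e-05). The other probes of Ddit4l, Psrc1 and Smpd3 also rose, by 2.34 to 4.05.

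The largest falls were those of Esm1, a proteoglycan secreted by endothelial cells, the sulfotransferase Sult3a2 (−4.07, with a near-identical copy that the probe may share), Hnf4aos, a transcript antisense to Hnf4a (−3.81), and Unc79, a subunit of a sodium leak channel (−3.64). Esm1 lay at 1.68, 1.95 and 2.55 in controls and at −2.56, −1.89 and −3.37 in CKO (−4.67, SE 0.45, adjusted p = 4.79e-05). Hnf4aos lay at 2.86, 3.09 and 2.20 against 0.46, −2.07 and −1.67, while its sense gene Hnf4a changed by −0.23 (adjusted p = 0.484). The metallothioneins, small proteins that bind zinc and copper, fell as a pair.

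Mt1 lay at 8.42, 8.20 and 8.01 in controls and at 6.16, 5.12 and 4.75 in CKO (−2.87, SE 0.51, adjusted p = 0.00312), and Mt2 changed by −2.65 (SE 0.57). Nrg4, a growth factor that the liver and brown fat secrete, was very even in controls, at 4.19, 4.22 and 4.16, and lay at 2.28, 1.11 and 0.79 in CKO (−2.79, SE 0.41, adjusted p = 0.000989). The mitochondrial adenylate kinase Ak4 (−2.83), the secreted protein Tafa2 (−2.64) and Vpreb3 (−2.50) completed the 10 lowest.

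**Figure D3:**
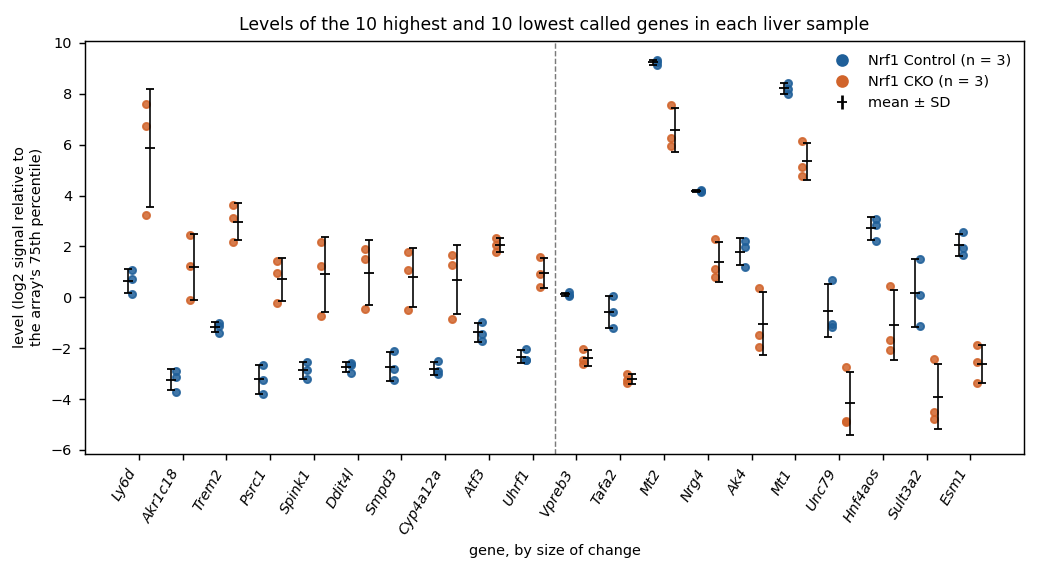
Level (log2 signal over the 75th percentile of the array, vertical axis) of the 10 highest and 10 lowest called genes (horizontal axis, by size of change) in each control (blue) and CKO sample (orange), with mean ± SD. Trem2 goes from −1.18 to 2.97 on average and Esm1 from 2.06 to −2.61, and the groups overlap for none of these 20 genes.

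Another 161 called genes were above background on all 3 CKO arrays and on no control array, and 14 the other way round. Of the former, the bounds were highest for Ccn5, a matricellular protein (at least 20.4-fold higher), Gpnmb, a glycoprotein of lipid-laden macrophages (at least 13.3-fold), the ectodysplasin receptor Eda2r (at least 12.4-fold), the macrophage elastase Mmp12 and the heme-binding protein Hebp2 (both at least 11-fold). Of the latter, after Nfe2l1, they were highest for the sodium channel Scn8a (at least 4.57-fold lower), Tmem35a (4.18), the cilium gene Cfap100 (3.17) and the circadian repressor Cry1 (3.06). Before scaling, the 75th percentile of the signal was 194 to 252 on control arrays and 305 to 403 on CKO arrays. Dim genes are more easily well above background on brighter arrays, and the part of this in the counts of 161 and 14 was not tested.

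Genes of the proteasome fell in all 3 of its parts. Of 14 measured subunits of the 20S core particle, which holds the protease sites, 10 fell and 0 rose (median −0.59, and −0.29 after quantile normalization). Of 6 ATPases of the 19S regulatory particle, which unfold the substrate, 4 fell and 0 rose (−0.72 and −0.48). Of 13 other 19S subunits, which bind and trim ubiquitin chains, 7 fell and 0 rose (−0.61 and −0.36). After quantile normalization the calls were fewer: 3 core subunits, 3 ATPases and 4 other 19S subunits fell, and 0 rose.

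For the 20S core the median distance of the subunits from the control mean was 0.00, 0.13 and −0.15 in controls 1 to 3 and −0.41, −0.69 and −0.71 in CKO 1 to 3. The falls were even among subunits and modest in size. Psma5 lay at 6.26, 6.43 and 6.09 in controls and at 5.59, 5.18 and 5.23 in CKO (−0.93, SE 0.14, adjusted p = 0.00141; 1.90-fold). Psmc6 lay at 5.82, 5.77 and 5.73 and at 5.21, 4.72 and 4.61 (−0.93, SE 0.19, adjusted p = 0.00606). Psmd12 changed by −0.93 (SE 0.18, adjusted p = 0.00441). The groups did not overlap for Psma5, Psmc6 or Psmd12. Other probes of Psmd12 changed by −0.79 and −0.40.

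Psmd8 (0.14), at the other end, and Adrm1 (−0.25), a ubiquitin receptor, did not pass the test. Of 17 assembly factors and activators, 4 fell and 1 rose. Pomp, the chaperone of 20S assembly, lay at 7.75, 7.85 and 7.53 in controls and at 7.14, 6.59 and 6.57 in CKO (−0.94, SE 0.18, adjusted p = 0.00461). The activator Psme4 (−0.60) and the assembly factor Psmd9 (−0.56) also fell, though neither was called after quantile normalization (−0.23 and −0.43), which left 1 lower call in this list, while Zfand2a, an arsenite-inducible protein that binds the proteasome, rose (0.72, SE 0.15, adjusted p = 0.00537).

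**Figure D4:**
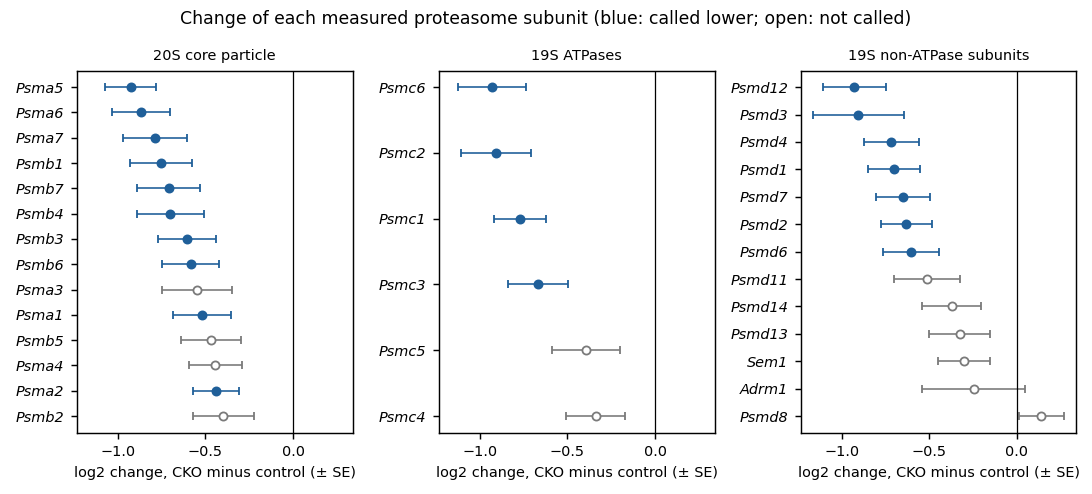
Log2 change (CKO minus control, horizontal axis, bars ± SE) of each measured subunit of the 20S core particle, the 19S ATPases and the other 19S subunits (vertical axis). Called subunits (blue) reach −0.93, and Psmd8 at 0.14 is the 1 subunit to the right of 0.

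The promoters of these subunits were searched for the core of the antioxidant response element, TGACNNNGC, on both strands of the window from 250 bases before to 50 after each start site (RefSeq, GRCm38.p6). Its opening letters TGAC are shared with the sites of AP-1 and CREB. The core was found for 6 of 27 proteasome genes with a promoter (22.2%), against 14% of 27025 genes and 16.7% of the tested genes. It was found for 3 of the 16 called subunits and for 3 of the 11 others, so that calls and matches did not go together in this window. The matches of the 3 called subunits, Psmb6, Psmc6 and Psmd12, are shown as the sequence a factor of this family would be looked for in, with the core in capitals (for Psmc6 and Psmd12 it lies on the opposite strand, so its reverse complement is printed).
Psmb6, chr11:70525318-70525356, plus strand: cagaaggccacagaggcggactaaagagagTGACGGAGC
Psmc6, chr14:45329574-45329635, plus strand: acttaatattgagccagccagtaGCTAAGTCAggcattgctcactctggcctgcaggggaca
Psmd12, chr11:107479278-107479319, plus strand: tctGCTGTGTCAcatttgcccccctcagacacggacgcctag

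Genes of the machinery that extracts and processes the NRF1 protein were lower for 5 of 26 and higher for 0 (median −0.22, −0.13 after quantile normalization). Os9, a lectin of the endoplasmic reticulum, lay at 5.14, 5.30 and 5.06 in controls and at 4.61, 4.37 and 4.22 in CKO (−0.77, SE 0.18, adjusted p = 0.012). Vcp, which encodes p97 (−0.74), the channel protein Derl2 (−0.61) and the p97 cofactor Nploc4 (−0.59) fell, and Ngly1, the enzyme that removes sugars from NRF1, fell by 0.54. After quantile normalization Os9 was the 1 gene of the list still called (−0.47), and Vcp was at −0.40, Derl2 at −0.16, Nploc4 at −0.45 and Ngly1 at −0.46.

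Among the factors that share NRF1's binding sites or partners, 4 of 11 fell, Nfe2l1 included, and 0 rose (median −0.69). After quantile normalization 4 fell and 1 rose (median −0.54). Bach1, a repressor that competes for the same elements, lay at 1.02, 0.98 and 0.62 in controls and at −0.08, −0.60 and −0.80 in CKO (−1.37, SE 0.27, adjusted p = 0.00455). The small MAF gene Mafg (−0.75) and the ubiquitin ligase scaffold Cul3 (−0.69) fell as well, and all 3 genes had groups that did not overlap.

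Of 24 genes of autophagy, 8 fell and 0 rose (median −0.34, −0.22 after quantile normalization). Bnip3, a mitophagy receptor, lay at 6.49, 6.25 and 6.33 in controls and at 5.15, 4.35 and 4.12 in CKO (−1.81, SE 0.22, adjusted p = 0.00035; 3.52-fold). Atg14 (−0.88), the autophagosome protein gene Map1lc3b (−0.85) and the initiating kinase Ulk1 (−0.79) also fell, and the receptor Sqstm1 (−0.12) did not pass the test. After quantile normalization 5 of the 24 fell, and Map1lc3b (−0.53) and Ulk1 (−0.38) were not called. Of 30 lysosomal genes, 2 rose (6.67%) and 4 fell (13.3%), near the 7.98% and 10.9% of all genes. The median was −0.18, or 0.16 after quantile normalization, with 3 higher and 2 lower. The membrane protein Cd63 rose (1.52, 1.77 and 1.56 in controls against 2.70, 3.62 and 4.48 in CKO; 1.98, SE 0.34, adjusted p = 0.00249), as did the protease Lgmn (0.77), while Ctsf (−0.94) fell.

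Genes of the portal and central ends of the liver lobule moved apart. Hepatocytes near the portal vein carry out urea synthesis and gluconeogenesis, and those near the central vein, which receive WNT signals, make glutamine and carry much of the drug metabolism. Of 18 periportal genes 12 fell and 1 rose (median −1.0, −0.65 after quantile normalization and −0.86 with slide as a block). Of 19 pericentral genes 4 rose and 2 fell (0.25, 0.62 and 0.33). After quantile normalization 6 periportal genes fell and 1 rose, and 6 pericentral genes rose and 0 fell. The difference between the lists was not tested.

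Gls2, the periportal glutaminase, lay at 7.32, 7.39 and 6.84 in controls and at 5.77, 4.74 and 3.89 in CKO (−2.38, SE 0.38, adjusted p = 0.0017; 5.22-fold). The serine dehydratase Sds lay at 7.05, 7.08 and 6.61 against 6.03, 4.72 and 3.63 (−2.12, SE 0.46, adjusted p = 0.00721). The urea cycle enzyme Asl (−1.73, SE 0.39) and the immunoglobulin receptor Pigr (−1.70, SE 0.35) fell too, and the groups overlapped for none of these. The 1 periportal gene that rose was the cadherin Cdh1 (1.13, SE 0.27).

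Among pericentral genes, the dicarboxylate carrier Slc13a3 was the most even: it lay at −2.11, −2.46 and −2.13 in controls and at 0.36, 0.54 and 0.72 in CKO (2.78, SE 0.27, adjusted p = 4.79e-05; 2.67 with slide as a block, call kept). The ammonium carrier Rhbg (1.54, SE 0.46, adjusted p = 0.0303), the WNT-responsive receptor Lgr5 (1.47, SE 0.48, adjusted p = 0.0452) and the WNT-responsive factor Sp5 (1.32, SE 0.30, adjusted p = 0.00954) rose as well. Lgr5 lay at −1.44, −1.15 and −1.86 in controls and at 0.19, 0.16 and −0.40 in CKO. The pericentral enzymes did not rise with them: the glutamine synthetase gene Glul was at −0.07 and Cyp2e1 at −0.37, and neither passed the test, while Cyp2c29 (−0.96) and Rgn (−0.72) fell, calls that were lost after quantile normalization (−0.46 and −0.21).

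**Figure D5:**
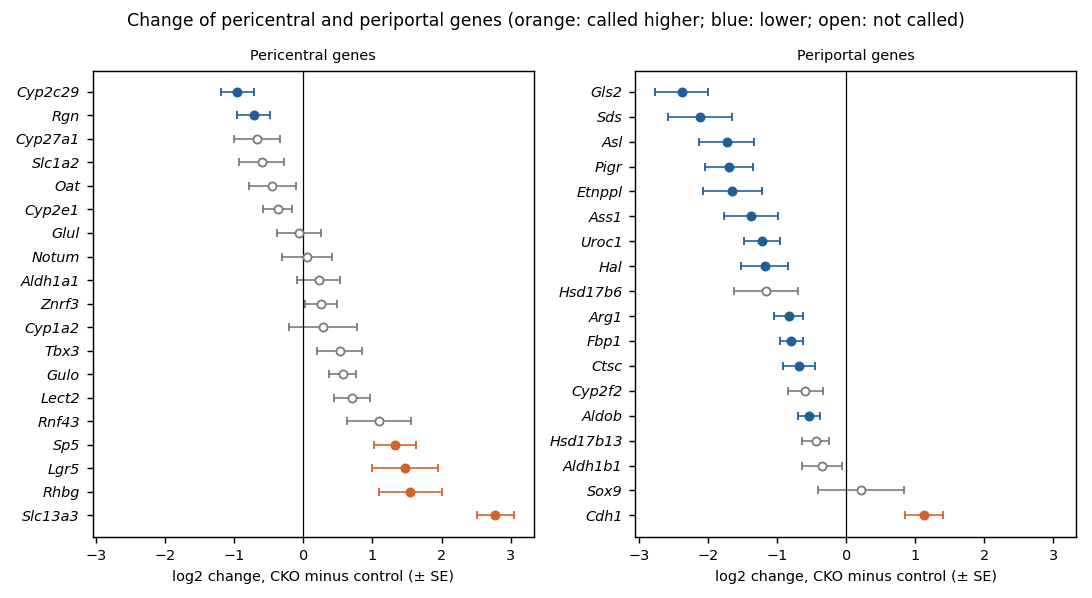
Log2 change (CKO minus control, horizontal axis, bars ± SE) of 19 pericentral and 18 periportal genes (vertical axis). Of the periportal genes 12 are called lower, down to Gls2 at −2.38, and of the pericentral genes 4 are called higher, up to Slc13a3 at 2.78.

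Enzymes that break down amino acids fell in large numbers. Of 39 such genes 25 fell and 0 rose (median −0.80; −0.52 after quantile normalization, with 12 lower). Gnmt, the glycine methyltransferase that uses up S-adenosylmethionine, lay at 9.11, 9.28 and 8.79 in controls and at 7.56, 7.03 and 6.37 in CKO (−2.07, SE 0.29, adjusted p = 0.000828; 4.21-fold). The tryptophan enzymes Afmid (−1.50) and Tdo2 (−1.14) and the tyrosine enzymes Hpd (−1.45) and Tat (−1.33) were lower. Of 19 genes of the urea cycle and nitrogen handling 5 fell and 1 rose (−0.65 and −0.20), among them Ass1 (−1.38), the step before Asl, and Otc (−1.01). After quantile normalization 2 of these 19 fell and 0 rose, and the calls of Ass1 (−0.87), Otc (−0.63) and Tat (−0.80) were lost.

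Many genes of secreted plasma proteins were called lower, but few or none of them after quantile normalization. Of 30 coagulation and fibrinolysis genes 18 fell and 0 rose (median −0.63; −0.20 after quantile normalization, with 4 lower), led by F7, which starts coagulation (−1.49, SE 0.27), the prekallikrein gene Klkb1 (−1.10) and the fibrinogen gene Fga (−1.06; −0.58 and not called after quantile normalization). Of 27 complement genes 7 fell and 2 rose (−0.27; 0.05 after quantile normalization, with 0 lower and 3 higher). C6 rose (1.48, SE 0.30), while C8g (−0.88; −0.42 and not called after quantile normalization) fell. Of 30 genes of apolipoproteins and lipoprotein handling 7 fell and 3 rose (−0.43; −0.03 after quantile normalization, with 0 lower and 3 higher). The lipoprotein lipase gene Lpl, which normal adult liver keeps low, rose from 0.69, 2.01 and 2.10 in controls to 4.20, 3.52 and 4.20 in CKO (2.37, SE 0.58, adjusted p = 0.0131), and the phospholipid transfer protein gene Pltp rose by 1.07.

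Of 34 genes of peroxisomes 12 fell and 0 rose (median −0.44; −0.22 after quantile normalization, with 7 lower). They included Agxt, which clears glyoxylate (−1.43), the urate oxidase Uox (−1.42), the membrane channel Pxmp2 (−1.32) and Pex11a, which drives peroxisome division (−1.25). Of 54 nuclear genes of the respiratory chain 16 fell and 0 rose, with Ndufb9 (−0.77), Sdha (−0.74, another probe at −0.18), Sdhb (−0.73) and Ndufa5 (−0.71) in front. Their median of −0.51 became −0.05 after quantile normalization, under which 1 of the 54 was called lower, none of these 4. For 41 ribosomal protein genes, of which 3 fell, the median turned from −0.33 to 0.14, with 0 lower and 1 higher.

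Markers of hepatocytes, taken as a check of the tissue, were lower for 6 of 13 and higher for 0 (median −0.50; −0.05 after quantile normalization, with 2 lower). Summed levels, here and below, are of linear signal in units of the array's 75th percentile, so the brightest members weigh most. The summed level of these markers was 4690 to 5521 on control arrays and 2822 to 3861 on CKO arrays, and Cps1 and Pck1 were not tested. The part of this in the falls of hepatocyte genes was not tested.

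Genes of cell division rose together. Of 32 genes of mitosis 22 rose and 0 fell (median 1.78, or 1.64 with the 7 genes that were not above background in controls set at their bound; 1.79 after quantile normalization). Cdc20, an activator of the anaphase-promoting complex, lay at −0.62, −0.46 and 0.43 in controls and at 2.10, 2.61 and 2.38 in CKO (2.58, SE 0.54, adjusted p = 0.0065; 5.97-fold). The DNA topoisomerase Top2a (2.23), the kinesin Kif20a (2.19) and the polo kinase Plk1 (2.18) rose as well. Control 3 was the highest of the controls for these genes, and the groups did not overlap.

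Of 35 genes of the G1 to S transition and DNA replication, 19 rose and 0 fell (median 1.14, 1.25 after quantile normalization). Mcm5, a subunit of the replicative helicase, lay at −1.14, −0.66 and −0.18 in controls and at 2.55, 1.45 and 1.83 in CKO (2.60, SE 0.47, adjusted p = 0.00303). Mcm2 (2.26) and the helicase partner Gins2 (2.24) rose too. Uhrf1, which copies methylation behind the fork, lay at −2.48, −2.47 and −2.03 against 1.57, 0.39 and 0.93 (3.29, SE 0.34, adjusted p = 0.000111). For these 4 genes CKO 1 was the highest of the CKO samples, unlike for the epithelial and matrix genes below. The brake on division Cdkn1a was at 1.85 and the thymidine kinase Tk1 at −0.96, and neither passed the test.

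The promoters of both lists were searched in the same window and on both strands for sites known from cell cycle genes. The cell cycle gene homology region, TTTGAA, was found for 19 of 28 mitosis genes with a promoter (67.9%), against 20.2% of 27025 genes and 14.9% of the tested genes. It was found for 10 of the 17 called and for 8 of the 10 others. The E2F site, searched as TTTGGCGC or TTTCCCGC, was found for 11 of 32 replication genes (34.4%), against 1.80% of all genes and 3.24% of the tested ones, and for 8 of the 17 called and 2 of the 13 others. Neither E2F form holds TTTGAA, though all 3 open with TTT, and a match is a description of the sequence, not of a bound site. Matches of called genes are shown with the motif in capitals, read along the gene's strand, which for Ube2c and Mcm5 is the motif's reverse complement.
Cdk1, chr10:69352913-69352957, minus strand: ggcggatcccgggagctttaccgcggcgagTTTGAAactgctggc
Cdc20, chr4:118437344-118437391, minus strand: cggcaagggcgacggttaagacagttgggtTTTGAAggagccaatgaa
Ube2c, chr2:164769870-164769928, plus strand: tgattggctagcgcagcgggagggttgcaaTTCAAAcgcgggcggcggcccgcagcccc
Mcm6, chr1:128359715-128359782, minus strand: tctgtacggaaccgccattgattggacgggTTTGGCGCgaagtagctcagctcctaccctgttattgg
Mcm5, chr8:75109330-75109397, plus strand: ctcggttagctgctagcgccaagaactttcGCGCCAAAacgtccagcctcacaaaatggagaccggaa
In these livers Cdk1, the kinase of mitotic entry, changed by 2.11, Ube2c, the ubiquitin-conjugating enzyme of anaphase, by 1.36 and Mcm6 by 2.10, and all 3 were called.

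Cytoskeletal genes rose in large numbers. Of 13 tubulins 7 rose and 1 fell (median 1.05, 1.19 after quantile normalization), and of 30 genes of actins, actin binding and intermediate filaments 14 rose and 0 fell (0.80 and 0.85). Tubb2a lay at 4.35, 4.48 and 4.77 in controls and at 5.36, 6.70 and 7.28 in CKO (1.91, SE 0.61, adjusted p = 0.04). Tuba8 (2.48, SE 0.46) and Tubb6 (1.97, SE 0.41) rose more. The actin-capping gene Capg lay at −0.70, 0.18 and −1.50 against 1.36, 1.88 and 1.96 (2.41, SE 0.32, adjusted p = 0.000605), followed by Tagln2 (1.26), Flna (1.13, with another probe at −0.16) and Tagln (1.13).

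Annexins and S100 proteins, which bind calcium and membranes, rose for 5 of 19 and fell for 2 (median 0.25, 0.40 after quantile normalization). Anxa2 lay at 0.36, 0.80 and 0.60 in controls and at 1.82, 3.35 and 3.98 in CKO (2.47, SE 0.41, adjusted p = 0.00215), and S100a11 (1.52) and Anxa3 (1.48) rose, while S100a13 fell (−1.19). Of 21 claudins, cadherins and gap junction genes, 3 rose (14.3%) and 2 fell (9.52%), against 7.98% and 10.9% of all genes. Claudin 1 (Cldn1, 1.54) rose and the hepatocyte connexin Gjb1 (−0.58, not called after quantile normalization) fell. Of 17 genes known from fetal liver and liver cancer 8 rose and 0 fell (1.28, 1.27 after quantile normalization): besides Ly6d and Spink1, the alpha-fetoprotein gene Afp (−1.46, −0.69 and −0.85 in controls, 0.38, 0.65 and 1.74 in CKO; 1.92, SE 0.38) and the Golgi protein gene Golm1 (1.37, SE 0.20) rose. Markers of cholangiocytes and progenitors were called for 0 of 10, though all 10 changes were above 0 (median 0.67), from Sox9 at 0.21 and Krt19 at 0.29 up to 1.11. The median distance of these markers from the control mean was −0.14, −0.06 and 0.18 in controls 1 to 3. In CKO 1 to 3 it was 0.12, 0.62 and 1.33. Their summed level was 14.7 to 20.1 on control and 19.7 to 48.2 on CKO arrays, Cftr was among the 2 not tested, and their part in these rises was not tested.

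Genes of the extracellular matrix rose. Of 18 collagens 10 rose and 0 fell (median 0.92, 0.97 after quantile normalization). The fibrillar collagen gene Col1a1 lay at −0.62, 0.13 and 0.39 in controls and at 1.35, 2.85 and 2.33 in CKO (2.21, SE 0.48, adjusted p = 0.00717). The basement membrane collagens Col4a2 (1.55, SE 0.25) and Col4a1 (1.48, SE 0.30) rose too. Of 19 metalloproteinases and inhibitors 13 rose and 3 fell (1.15 and 1.14). The gelatinase Mmp2 lay at −2.60, −2.32 and −2.66 against −1.0, 0.23 and 0.20 (2.34, SE 0.29, adjusted p = 0.00035), and Timp1 (1.61), Adam8 (1.52, not called after quantile normalization) and Adamts5 (1.29) rose, the first 2 with groups that overlapped.

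Of 29 genes of the TGF-beta family and its targets 8 rose and 0 fell (median 0.61, 0.68 after quantile normalization). The secreted protein Ccn1 lay at −0.42, −0.88 and −0.65 in controls and at 0.70, 1.62 and 1.54 in CKO (1.94, SE 0.24, adjusted p = 0.00035). The receptor Tgfbr2 (0.98) and the latency proteins Ltbp2 (1.27) and Ltbp3 (1.11, another probe at 0.39) rose. Tgfb1 (0.61) and Ccn2 (0.02) did not pass the test.

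Markers of hepatic stellate cells and fibroblasts, the cells that lay down this matrix, rose for 11 of 17 and fell for 0 (median 0.91, 1.03 after quantile normalization). Lum, a proteoglycan, lay at 2.15, 2.20 and 2.33 in controls and at 3.39, 4.18 and 4.35 in CKO (1.75, SE 0.24, adjusted p = 0.000664). Cygb (1.37) and Pdgfrb (1.17) rose, and Dcn (0.42) and Thy1 (0.15) did not pass. The summed level of the 17 was 163 to 229 on control arrays and 230 to 271 on CKO arrays, ranges that nearly met, and its part in the rise of matrix genes was not tested. The markers include the collagen genes Col1a1, Col1a2 and Col3a1, so their rise and that of the collagens are in part the same values. Of 25 growth factors 5 rose and 2 fell (median 0.18). Pdgfa lay at 2.69, 2.76 and 2.31 against 3.74, 4.89 and 4.53 (1.80, SE 0.31, adjusted p = 0.00248), and Pdgfc (1.61) and Hgf (1.14) rose.

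Genes of macrophages changed unevenly. Of 10 markers of infiltrating and lipid-associated macrophages 4 rose and 0 fell (median 1.14, 1.29 after quantile normalization): Trem2, Gpnmb, Mmp12 and the lectin Lgals3, which lay at 0.29, 1.59 and 0.20 in controls and at 2.59, 3.01 and 3.49 in CKO (2.34, SE 0.33, adjusted p = 0.000796). The summed level of all 10 was 234 to 269 on control and 204 to 402 on CKO arrays, which overlapped. The 4 called genes add little to this sum in controls. Their mean log2 levels there were −1.18 for Trem2, 0.69 for Lgals3, −6.62 for Gpnmb and −6.51 for Mmp12. The sum thus mostly follows the other markers, and Itgam, Cd68, Cx3cr1 and Fabp5 were not tested. Of 13 markers of Kupffer cells, the resident macrophages, 2 rose and 1 fell (0.42): Marco (2.18, groups overlapping) and Cd5l (1.15) rose, Cd163 fell (0.14, 0.07 and 0.26 against −0.58, −1.27 and −2.19; −1.50, SE 0.37), and Clec4f (0.12), Timd4 (0.12) and Adgre1 (0.03) did not pass. The summed Kupffer level was 163 to 266 against 250 to 485.

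Of 29 chemokines and receptors 10 rose and 5 fell (median 0.25, 0.37 after quantile normalization). Ccl2, which attracts monocytes, lay at −2.20, −0.34 and −2.01 in controls and at 0.04, 2.82 and 1.94 in CKO (3.12, SE 0.58, adjusted p = 0.00358). Cxcl14 (3.11), Ccl4 (2.36) and Cxcl10 (1.71) rose, the last 2 with overlapping groups. Control 2 stood above the other controls for many such genes: the median distance from the control mean was 0.56 in control 2 against −0.38 in both others for chemokines, and 0.72 against −0.30 and −0.38 for lymphocyte markers.

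Of 26 genes of TNF and interleukin signalling 7 rose and 2 fell (0.38). The adhesion molecule Icam1 (1.70), the TWEAK receptor Tnfrsf12a (1.58) and the NF-kappaB subunit Relb (1.49) rose, and the interleukin 6 receptor Il6ra fell (1.15, 0.71 and 0.95 against −0.20, −1.50 and −0.98; −1.83, SE 0.27, adjusted p = 0.00104). Interferon-stimulated genes were called higher for 3 of 28 (median 0.13), close to the background of 7.98%. Xaf1 (1.64, groups overlapping), Oasl1 (1.30) and Oas1a (0.83) were the 3.

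Markers of lymphocytes were called higher for 1 of 13 (median 0.08; summed level 4.06 to 8.80 on control and 5.08 to 8.45 on CKO arrays; Cd4, Cd8b1, Cd79a, Trac and Ncr1 not tested) and of neutrophils for 0 of 7 (−0.31, or 0.50 with slide as a block; 2.55 to 18.7 and 2.94 to 7.96; Ly6g, Elane, Cxcr2 and Ngp not tested). Of 6 erythroid markers 1 fell (−0.82; summed level 291 to 324 against 149 to 167, with near-identical globin copies that the probes may share; Epb42 and Ahsp among the 3 not tested). Of 3 pancreas markers, the elastase gene Cela1 rose (median 0.66, or 0.55 with bounds; 0.181 to 0.271 against 0.284 to 0.346; 6 of 9 not tested). Of 3 adipocyte markers Pparg and Cidec rose (1.27; 14.6 to 18.5 against 20.2 to 48.7), and Adipoq, Lep, Plin1, Retn and Cfd were not tested. The share of lymphocyte markers called higher (7.69%) was near the 7.98% of all genes, and after quantile normalization 0 were called. The part of the cell types of this paragraph in the results was not tested.

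Endothelial markers hardly moved as a list: 1 of 15 rose and 2 fell (median −0.07; summed level 84.7 to 98.5 on control and 67.9 to 89.2 on CKO arrays; Rspo3 not tested). After quantile normalization 3 rose and 2 fell (median 0.05). Besides Esm1, the hyaluronan receptor Lyve1 fell, from 1.41, 1.71 and 1.57 in controls to −0.12, −1.21 and −1.23 in CKO (−2.42, SE 0.26, adjusted p = 0.000178; −2.42 with slide as a block, call kept). Stab2 (0.10), Pecam1 (0.01), Kdr (−0.06) and Clec4g (−0.26), of the same cells, did not pass the test. Wnt2, a WNT ligand of the endothelium around the central vein, rose: it lay at 0.16, 0.05 and −0.52 in controls and at 1.32, 0.88 and 1.59 in CKO (1.37, SE 0.39, adjusted p = 0.0255).

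Of 23 immediate early genes 6 rose and 0 fell (median 0.55; 0.53 after quantile normalization, with 9 higher). Besides Atf3, the AP-1 subunit Jun lay at 0.22, −0.17 and 0.21 in controls and at 1.69, 1.94 and 1.16 in CKO (1.51, SE 0.19, adjusted p = 0.00035), and Fos (2.01) and the orphan receptor Nr4a1 (2.35) rose, with CKO 3 the lowest of the CKO samples for each of these 3. Of 30 genes of the BCL2 family and apoptosis 4 rose (13.3%) and 3 fell (10%), against 7.98% and 10.9% of all genes. Their median was −0.04, or 0.14 after quantile normalization. Bax, which opens mitochondria, lay at 1.36, 1.54 and 1.66 against 2.25, 2.55 and 2.84 (1.03, SE 0.15, adjusted p = 0.001), and Pmaip1 (1.26) and the caspase scaffold Apaf1 (0.87) rose.

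Of 30 liver transcription factors and nuclear receptors 7 fell and 1 rose (median −0.33; −0.15 after quantile normalization, with 4 lower). The xenobiotic receptor Nr1i2 lay at 3.76, 3.44 and 3.43 in controls and at 3.06, 1.89 and 2.37 in CKO (−1.10, SE 0.34, adjusted p = 0.0338; not called after quantile normalization). The transcription factor gene Cebpb (−1.07) fell, and Pparg, the receptor of fat storage, rose (0.59, 0.55 and 0.33 against 1.13, 2.17 and 1.99; 1.27, SE 0.31, adjusted p = 0.0127).

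Of 24 UDP-glucuronosyltransferases, sulfotransferases and their cofactor enzymes 8 fell and 1 rose (median −0.50; −0.27 after quantile normalization, with 3 lower), with Sult1d1 (−1.70), Papss2 (−1.39) and Sult1a1 (−0.99; −0.47 and not called after quantile normalization) after Sult3a2. Of 28 carriers and ABC transporters 8 fell and 2 rose (−0.51; −0.29 after quantile normalization, with 5 lower). The carnitine carrier Slc22a5 (−1.37), the sterol exporter Abcg8 (−1.28) and the bile acid carrier Slc10a1 (−1.18) fell and the organic anion carrier Slc22a7 rose (1.44). Of 21 genes of the growth hormone and IGF axis 4 fell and 0 rose (−0.38 and −0.10): the insulin receptor gene Insr (1.04, 0.74 and 1.40 against 0.37, −0.45 and −0.59; −1.29, SE 0.24), Igfbp3 (−1.0), Ghr (−0.92) and Prlr (−0.95). The mean over all probes of Prlr was 0.12 (adjusted p = 0.792), since its other probes lay at 0.60 and 0.72, so its direction rests on 1 probe.

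Of 30 genes of heme and iron 1 rose (3.33%) and 2 fell (6.67%), below the 7.98% and 10.9% of all genes. The heme oxygenase Hmox1 (0.93, groups overlapping) rose. The iron regulatory proteins Ireb2 (−0.70, another probe at −0.18) and Aco1 (−0.60) fell. The median of the list was −0.26 and became 0.13 after quantile normalization, with 0 lower and 3 higher. Of 26 SR splicing factors and cyclin L genes 2 rose (7.69%, near the 7.98% of all genes), among them Tra2b (0.72). In the same list 5 fell (19.2%), among them Luc7l (−0.84, another probe at −0.20), Ccnl2 (−0.83) and Clk4 (−0.64). The median was −0.27, or −0.14 after quantile normalization. After quantile normalization 1 of the 26 fell, and Ccnl2 (−0.57) and Clk4 (−0.42) were not called. Of 20 cytosolic aminoacyl-tRNA synthetases 1 rose (5%, below the 7.98% of all genes), Gars (0.93), and 0 fell. Their median was 0.05, or 0.13 after quantile normalization, with 2 higher.

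The change with Nrf1 loss was set beside those in the other lines. In Nrf2 KO 11 genes were called (0.0621%) and in Keap1 KD 979 (5.52%). The Nrf2 Control arrays all lay on the same slide and scan date, and the Nrf2 KO arrays lay on other slides and dates. Within that line the Nrf2 change therefore cannot be told apart from slide and date, which also enter any difference from it. In the Keap1 line, Keap1 Control 3 and Keap1 KD 3 shared a slide, and no other slide held arrays of both groups. Keap1 KD 1 and 2 had a scan date without a Keap1 Control array. The Keap1 change is therefore partly mixed with slide and date, which enter any difference from it too. The Nrf1 change differed from the Nrf2 change for 988 genes (5.58%), of which 533 were higher in the Nrf1 line (3.01%), and from the Keap1 change for 1226 (6.92%), of which 630 were higher (3.56%). With slide as a block these counts were 8 and 11, and leaving out 1 array gave 294 to 2131 and 263 to 2312. With scan date as a block 201 genes differed from the Nrf2 change and 329 from the Keap1 change. The 20 highest and lowest genes were chosen for a large Nrf1 change, which favours a difference, so their values are a description. For Atf3 the change was 3.43 in the Nrf1 line, 1.19 in Nrf2 KO and −0.16 in Keap1 KD. For Trem2 it was 4.15, −0.46 and 1.51, and the Keap1 change passed the test by itself (adjusted p = 0.0165), as did that of Ddit4l (1.58, adjusted p = 0.0482, against 3.70). In 2 genes the Keap1 change was called in the opposite direction: Akr1c18 at −2.56 (adjusted p = 0.0143) and Tafa2 at 2.97 (adjusted p = 0.00809). None of the 20 was called in Nrf2 KO.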

How the data were processed

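Per the file headers, arrays were read with Agilent Feature Extraction 10.7.3.1 and the deposited processed signal intensities were background-subtracted and detrended, not normalized between arrays. The deposited median spot and background intensities are raw, and the deposited flags and control types are other output of that software. The series table equalled the processed signal at all 810324 entries. Here log2 signal was scaled to each array's 75th percentile over non-control spots (median or quantile as alternatives). Probes well above background on 3 arrays of a group were kept (23554 of 41174), the brightest per gene. RefSeq transcripts named 64.9% of probes. limma 3.58.1 in R 4.3.3 fitted 6 groups of 3, Benjamini-Hochberg adjusted, after a check on simulated data. Named were Nfe2l1, the 10 highest and 10 lowest called genes above background on all 6 arrays without overlap, 5 with the largest bounds each way, and up to 4 called members, by size, of lists with at least 3. Genes named beyond this rule were chosen after their values were seen. Lists and rules were chosen with earlier results of these data known. A few named genes are not reported here.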

Additional observations from a re-analysis of the deposited data

Results flagged for a closer look

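Each result here is a change with Nrf1 loss that differed from the change in another line by a test of the difference itself (limma, adjusted over all 17721 genes). Against the Nrf2 line 988 genes differed, and against the Keap1 line 1226. The Nrf2 change cannot be told apart from slide and scan date, and the Keap1 change is partly mixed with them, as given above. The single genes come from the 20 with the highest and lowest Nrf1 changes, so large differences are favoured by how they were picked.

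Against the Nrf2 change, the Nrf1 change was higher for Spink1 by 5.96 on the log2 scale, for Ly6d by 5.93, for Akr1c18 by 5.58, for Cyp4a12a by 5.43, for Psrc1 by 4.69, for Trem2 by 4.62, for Smpd3 by 4.59, for Uhrf1 by 3.96, for Ddit4l by 3.58 and for Atf3 by 2.24. The difference was −5.06 for Esm1, −3.94 for Unc79, −3.63 for Vpreb3, −3.54 for Mt1, −3.42 for Nrg4 and −3.34 for Ak4.

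Against the Keap1 change, the Nrf1 change was higher for Akr1c18 by 7.0, for Psrc1 by 4.57, for Atf3 by 3.59, for Uhrf1 by 3.07 and for Trem2 by 2.64. The difference was −5.60 for Tafa2, −4.96 for Sult3a2, −4.54 for Hnf4aos, −4.37 for Esm1, −3.58 for Mt1, −2.88 for Mt2, −2.81 for Vpreb3 and −2.61 for Nrg4.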

How the results depend on the processing

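All counts are of genes called by limma, with 3347 (1415 higher, 1932 lower) in the Nrf1 comparison, 988 in the difference from the Nrf2 line and 1226 in that from the Keap1 line. In the Nrf1 comparison, quantile normalization gave 1253 lower, no filter on background 2117 (939 higher, 1178 lower, 32282 tested) and slide as a block 65 (41 and 24). Leaving out 1 Nrf1 array at a time gave 939 to 4160 (501 to 1709 higher, 438 to 2451 lower): CKO 3 out gave 939, CKO 2 out 1181 and control 1 out 1216. In an alternative added after seeing the data, control 3 against the 3 CKO arrays on their shared slide, with the spread pooled over all groups and the lone control assumed to vary like the others, gave 126 (89 and 37). For the Nrf2 difference, the array median gave 572, no filter 314, the 12 arrays of both lines 1842, slide as a block 8, scan date as a block 201, the shared slide 61 and leaving out 1 array 294 (CKO 3) to 2131 (CKO 1), with 334 for CKO 2, 348 for control 1 and 592 for control 2. For the Keap1 difference, quantile normalization gave 746, the array median 2579, no filter 353, the 12 arrays of both lines 268, slide as a block 11, scan date as a block 329, the shared slide 78 and leaving out 1 array 263 (control 1) to 2312 (CKO 1), with 271 for CKO 3, 359 for CKO 2 and 778 for control 2. Of the 188 genes picked for naming, 95 lost their call without CKO 3, 80 without CKO 2, 74 without control 1, 39 without control 2, 26 without control 3 and 3 without CKO 1; 44 did with the Nrf1 line alone, 42 without the filter, 34 after quantile normalization, 32 after normexp with it and 25 with the array median. Of the 52 lists, the number of members called moved by over 1.5 times for 42 without CKO 3, 42 without control 1, 39 without CKO 2, 22 after quantile normalization and 48 with slide as a block. Prlr reversed to 0.12 as the mean of all probes, and the Nrf1 minus Nrf2 difference of Tafa2 (−1.29) reversed to 0.69 with slide as a block and to 0.47 with scan date. For changes other than these probe and block choices the cause was not tested.

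The replicate numbers did not pair the samples: deviations of same-numbered samples correlated at 0.127, 0.12 and −0.017, and with the replicate block 3583 genes were called (1486 higher, 2097 lower), or 1301 and 1617 for the differences.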

Other observations

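Markers of neutrophils were uneven among the controls: the median distance of the 7 measured genes from the control mean was 1.86 in control 2 against −1.18 and −0.79 in controls 1 and 3, and −0.85, 0.63 and −0.70 in CKO 1 to 3.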
